A study of Mus musculus with 6 samples.

Results

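The Pim kinases are 3 serine/threonine kinases, encoded in the mouse by Pim1, Pim2 and Pim3. All probe sets whose only annotated symbol was one of these were taken, which gave 3 of the 8251 genes and 5 of the 12422 probe sets on the array: 2 for Pim1, 2 for Pim2 and 1 for Pim3. The family was chosen by the aldosterone and vehicle values of Pim3, so its treatment differences are described and not tested. They were read in mIMCD3 cells, a mouse line from the inner medullary collecting duct, the final segment of the kidney tubule and a site of aldosterone action. Cells had received aldosterone or vehicle for 1 h. The sample titles number 3 replications, and each holds 1 aldosterone array and 1 vehicle array, 6 in all. The sources used here give neither the hormone dose nor the cultures behind each replication, so errors measure the spread between these samples, which may be technical. All arrays come from 1 immortalised cell line, cells removed from the tubule and its blood supply.

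Pim kinases have no regulatory domain that must be switched on. They are active once made, so their output is set largely by how much mRNA and protein the cell holds, and both are short-lived. Cytokine receptors raise Pim transcription through JAK kinases and STAT factors. The kinases promote survival by phosphorylating the death factor Bad, promote the cell cycle through the inhibitors p21 and p27, and promote cap-dependent translation, and they cooperate with Myc. They share a consensus target sequence with the AKT, SGK and RSK kinases, among them Sgk1, the kinase best known as an aldosterone target.

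The values are intensities on a linear scale, scaled so that all arrays share 1 trimmed mean. The aldosterone array of replication 3 was deposited on a scale lower by a factor of 28.8. After scaling its intensities run in steps of 2.42 units, against at most 0.0840 on the other arrays, which matters only for dim probe sets. Treatment differences of the Pim genes are given with and without it, and other values include it unless stated. Of 13 collecting duct epithelial markers on the array, 10 were bright enough to be tested. Krt8, a simple epithelial keratin, averaged 17461 with aldosterone and 19391 with vehicle. Cdh1, the adhesion protein E-cadherin, averaged 2445 and 2611, and Epcam 1022 and 981. Also bright enough were 3 of 7 fibroblast, 1 of 5 endothelial and 3 of 5 proximal tubule markers. The fibroblast gene Col1a2 averaged 4126 with aldosterone and 4590 with vehicle, above Cdh1. The water channel Aqp2 (334 with aldosterone, 208 with vehicle) and Hsd11b2 (133 and 204) were too dim to be tested, as was the vasopressin receptor Avpr2. Summed over the 8 leukocyte markers, cells in which Pim genes are best known, intensity was 6368 to 8561 with aldosterone and 7252 to 10629 with vehicle. Most of that sum came from Cd14, at 5199 with aldosterone and 5907 with vehicle. Without it the sum was 2156 to 2868 with aldosterone and 2288 to 3632 with vehicle. Cd14, Csf1r (1257 and 1233), Cd68 and Cd79a were bright enough to be tested. The other 4 were not, among them the defining marker Ptprc at 112 with aldosterone and 43.8 with vehicle, and none was listed at 0.

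The sequences before the annotated transcription starts are shown because the genes differed in their pattern over the arrays. They are the 250 bases up to the start of Pim3, of the first of 2 annotated starts of Pim1, and of Pim2, from RefSeq on GRCm38.p6, all on the plus strand. They lie at chr15:88861944-88862193, chr17:29490535-29490784 and chrX:7878056-7878305. Capitals mark the CCAAT box (CCAAT, or ATTGG on the other strand) and the GC box (GGGCGG, or CCGCCC on the other strand).
Pim3: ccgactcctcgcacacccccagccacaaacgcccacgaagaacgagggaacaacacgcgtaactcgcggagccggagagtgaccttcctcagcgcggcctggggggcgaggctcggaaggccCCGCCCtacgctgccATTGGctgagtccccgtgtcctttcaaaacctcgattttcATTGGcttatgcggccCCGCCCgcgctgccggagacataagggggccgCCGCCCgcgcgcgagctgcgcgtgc
Pim1: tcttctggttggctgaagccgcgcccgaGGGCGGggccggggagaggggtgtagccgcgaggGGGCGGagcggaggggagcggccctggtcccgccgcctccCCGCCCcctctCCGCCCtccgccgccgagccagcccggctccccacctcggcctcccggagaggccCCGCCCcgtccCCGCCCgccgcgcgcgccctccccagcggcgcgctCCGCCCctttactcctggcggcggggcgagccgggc
Pim2: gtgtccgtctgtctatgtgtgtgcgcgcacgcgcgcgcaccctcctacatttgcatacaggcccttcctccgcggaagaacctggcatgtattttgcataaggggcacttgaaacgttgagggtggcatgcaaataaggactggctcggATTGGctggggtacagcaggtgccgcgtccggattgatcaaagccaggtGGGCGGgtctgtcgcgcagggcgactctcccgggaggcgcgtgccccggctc

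The Pim3 window held 2 CCAAT boxes, at positions -113 and -73 from the start, and 3 GC boxes. The Pim1 window held 7 GC boxes and no CCAAT box, and the Pim2 window held 1 of each. Over 32851 mouse promoter windows of this length, 33.8% held a CCAAT box and 32.7% a GC box. The Pim1 window was 82.4% G and C, above 99.4% of the windows, against 68.0% for Pim3 and 62.0% for Pim2. The window before the other annotated Pim1 start, 48.0% G and C, held an E-box (CACGTG), as did 6.02% of windows. On either strand, none of the 4 Pim windows held the corticosteroid receptor element (AGAACA and TGTTCT with NNN between them), found in 3 windows in all. None held its shorter core AGAACA, which is part of the full element and was found in 16.1%, or the STAT site TTCNNNGAA, found in 7.02%. These matches describe letters in a short window and do not show binding.

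Pim3 was the Pim gene that was higher with aldosterone, the difference that drew attention to the family. Pim3 had intensities of 5087, 6248 and 6121 in replications 1, 2 and 3 with aldosterone, against 4008, 3276 and 4296 with vehicle. Every aldosterone array lay above every vehicle array, the lowest of the first 1.18 times the highest of the second. The means were 5819 ± 637 with aldosterone and 3860 ± 526 with vehicle (SD, n = 3 each). Aldosterone was 1.27-fold, 1.89-fold and 1.42-fold over vehicle within the 3 replications. Replication 2, which had the lowest vehicle value and the highest aldosterone value, showed the widest gap.

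The mean difference of Pim3 was 0.59 on the scale log2(intensity + 53.0), or 1.50-fold, with a standard error of 0.161, and 0.128 when the replications were taken as pairs. It was larger than the difference of 98.7% of the 7453 probe sets bright enough to be tested. Without the aldosterone array of replication 3 it was 0.55, and in replications 1 and 3 alone it was 0.42. Of the tested probe sets, 1.91% had all aldosterone arrays above all vehicle arrays and 10.5% were higher with aldosterone in all 3 replications. Because Pim3 was noticed through this contrast, nothing is read from its place in those shares. For scale, Sgk1 had a log2 difference of 1.63.

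**Figure D1:**
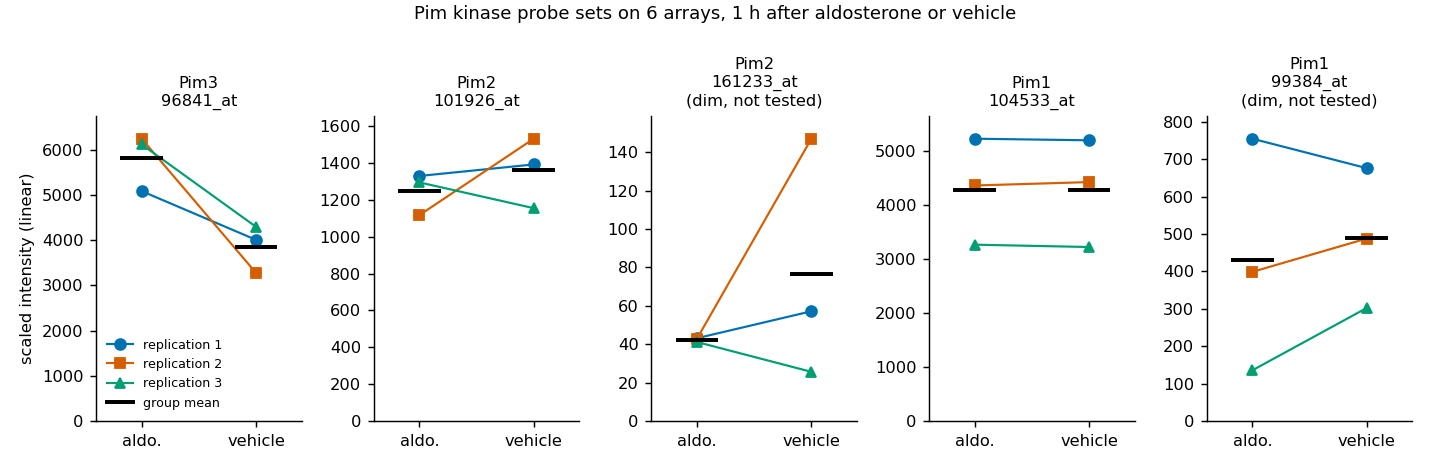
Scaled intensity (linear axis from 0) of the 5 Pim probe sets on each array, aldosterone left and vehicle right, with lines joining the arrays of 1 replication and black bars at group means. For Pim3 all 3 aldosterone arrays (5087 to 6248) sit above all vehicle arrays (3276 to 4296), while for the bright Pim1 probe set the 3 lines are flat and lie apart.

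Pim1, the founding member of the family, did not share that difference. Its bright probe set had intensities of 5222, 4356 and 3261 in replications 1, 2 and 3 with aldosterone, against 5193, 4420 and 3218 with vehicle. Both treatments spanned the same range, and the 2 arrays of a replication nearly coincided. The means were 4280 ± 983 with aldosterone and 4277 ± 995 with vehicle (SD, n = 3 each). The log2 differences within the replications were 0.008, -0.02 and 0.019. Their mean was 0.002, with a standard error of 0.225 on group alone and 0.103 with the replications paired. Without the aldosterone array of replication 3 it was 0.18, with replication 3, where Pim1 was lowest, then represented by its vehicle array alone. The largest of the 3 in size was 0.02, and 1 of the 7453 tested probe sets had a smaller largest shift, against a median of 0.35.

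The other Pim1 probe set was dim, with a mean log2 value of 8.85 just under the limit of 8.87 for testing. It had intensities of 755, 399 and 135 with aldosterone, against 676, 488 and 302 with vehicle, and the groups overlapped. Its log2 differences were 0.15, -0.26 and -0.92 within the replications. Their mean was -0.34 with a standard error of 0.371 when paired, so its direction was not resolved. Without the rescaled array of replication 3 the difference was 0.22, and in replications 1 and 2 alone it was -0.06. The difference of the bright Pim1 probe set lay within that error.

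Pim2, the member best known from lymphoid cells, showed no common direction. Its brighter probe set had intensities of 1331, 1118 and 1296 in replications 1, 2 and 3 with aldosterone, against 1393, 1533 and 1156 with vehicle. The groups overlapped, and Pim2 was lower with aldosterone in replications 1 and 2 and higher in replication 3. The mean log2 difference was -0.11, with standard errors of 0.196 on group alone and 0.187 paired, and it was -0.14 without the aldosterone array of replication 3. The other Pim2 probe set was among the dimmest on the array, at the 7.75th percentile of brightness. It read 43.1, 42.8 and 41.1 with aldosterone, against 57.1, 147 and 25.6 with vehicle. These readings are too low to carry a difference.

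**Figure D2:**
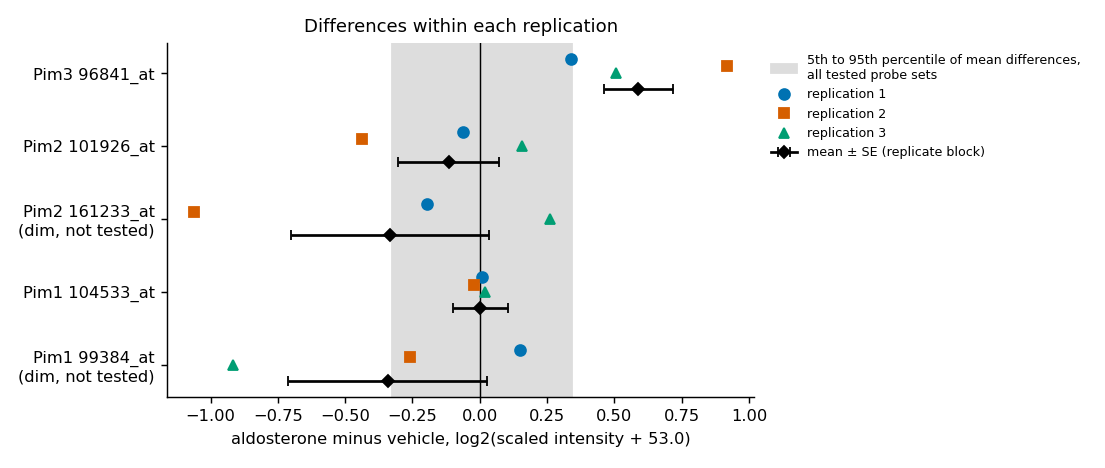
Aldosterone minus vehicle on the log2(scaled intensity + 53.0) scale for each Pim probe set, with 1 symbol per replication, the mean with its standard error from the paired fit as a diamond, and a grey band from the 5th to the 95th percentile of all tested probe sets (-0.33 to 0.34). The Pim3 symbols lie at 0.34, 0.92 and 0.51, and those of the bright Pim1 probe set lie within 0.02 of zero.

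Over all tested probe sets, limma's fit on group alone called 0 of 7453 at an adjusted p under 0.05 (0.0%), and 72 had an unadjusted p under 0.05 (0.966%). Of the 5 Pim probe sets 3 passed the brightness filter, each with the means of both treatments above the limit. The filter used the mean over all arrays, and 211 of the tested probe sets (2.83%) had 1 treatment mean below it.

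The replications themselves gave a comparison that did not enter the choice of the family, since each holds 1 array of each treatment. The bright Pim1 probe set differed between replications. It averaged 5208 in replication 1, 4388 in replication 2 and 3240 in replication 3 over the 2 arrays of each. Replication 1 lay 1.60-fold above replication 3, or 0.68 ± 0.126 (log2 difference ± SE). By limma's F test over replications, with treatment in the fit and Benjamini-Hochberg adjustment over all probe sets, the adjusted p was 0.0296. The same test called 583 of the 7453 probe sets (7.82%), so a difference between replications was not rare. Between pairs of replications, limma's adjusted p for Pim1 was 0.0228 for 1 against 3, where 3.64% of all probe sets were called. It was 0.0752 for 2 against 3 (6.23% called) and 0.335 for 1 against 2 (3.84% called).

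That gap was as wide with aldosterone, 1.60-fold between replications 1 and 3, as with vehicle, 1.61-fold. Its size stayed between 0.60 and 0.69 over the main setting and all 14 alternatives, but its call did not. Some alternatives cannot alter that size: filter, intensity trend, treatment left out of the fit, or an array of replication 2 left out. Without a vehicle or an aldosterone array of replication 1 the adjusted p of the F test was 0.135 and 0.129. Without a vehicle or an aldosterone array of replication 3 it was 0.110 and 0.0963, and without the intensity trend in limma it was 0.166.

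The dim Pim1 probe set had the same order, with 755 and 676 in replication 1, 399 and 488 in replication 2, and 135 and 302 in replication 3 (aldosterone, then vehicle). Of all 12422 probe sets, 4.31% had this order of replications under both treatments. When dim probe sets were included in the test, its adjusted p was 0.137. Pim2 and Pim3 did not pass, with adjusted p of 0.882 for Pim2 and 0.622 for Pim3 by limma's F test. Pim3 averaged 4548, 4762 and 5209 in replications 1, 2 and 3, and Pim2 averaged 1362, 1325 and 1226.

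Some markers of the collecting duct epithelium were also lowest in replication 3. Summed over the 13 listed markers on the array, intensity was 75675 and 76612 in replication 1, 73198 and 75230 in replication 2, and 53702 and 58809 in replication 3 (aldosterone, then vehicle). Without Cldn4 the sum was 63004 and 65543 in replication 1, 61776 and 66041 in replication 2, and 51546 and 56097 in replication 3. By limma's F test 2 of the 10 tested differed between replications, where 7.73% of all tested genes did. The tight junction gene Cldn4 averaged 11870, 10306 and 2435 in replications 1, 2 and 3, and the epithelial transcription factor Ehf averaged 1906, 840 and 596. The call of Ehf was lost without either array of replication 1, with adjusted p up to 0.190, and both calls were lost without the intensity trend (0.0737 for Cldn4 and 0.153 for Ehf). Of the 10, 4 had the order of Pim1 in their replication means (Epcam, Cldn4, Ehf and Elf3), as 15.2% of all tested genes did. Another 3 were highest in replication 2 (Krt8, Krt19 and Cdh1) and 2 in replication 3 (Pax2 and Hoxb7). The part of these markers in the Pim1 result was not tested. On such arrays, fewer cells of a type and less RNA per cell cannot be told apart.

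**Figure D3:**
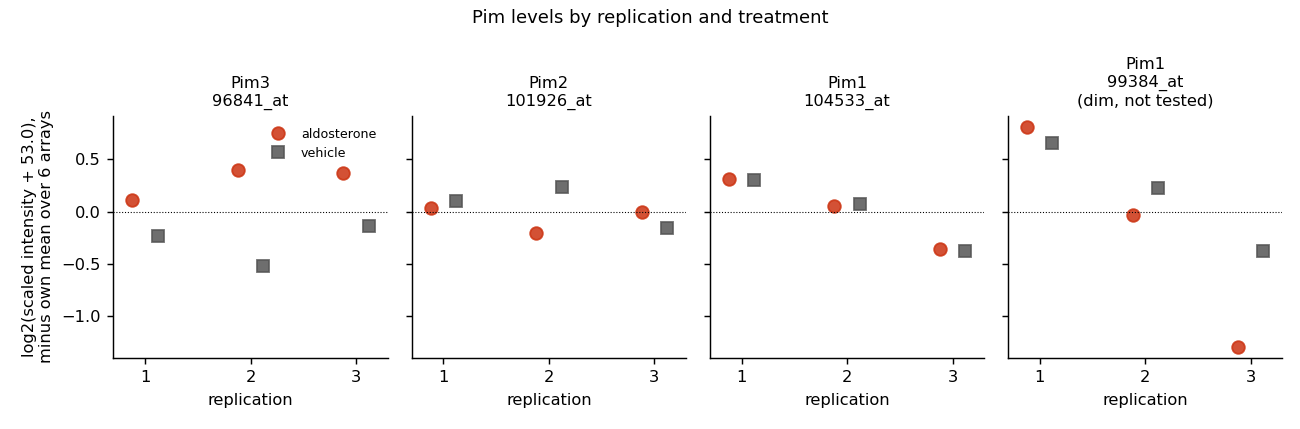
Log2(scaled intensity + 53.0) of 4 Pim probe sets minus each probe set's mean over the 6 arrays, by replication, with aldosterone as red circles and vehicle as grey squares. The symbols of the treatments separate in every replication for Pim3 (by 0.34, 0.92 and 0.51) and coincide for the bright Pim1 probe set, whose values instead lie highest in replication 1 and lowest in replication 3.

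Likeness to each tested Pim probe set was measured over the 6 arrays as the root-mean-square difference between log2 profiles, each centred on its own mean, for 5639 other genes by their brightest probe set. The nearest gene to Pim3 was Dcaf12, a substrate receptor of a cullin ubiquitin ligase, at 0.06 against a median of 0.39 over all genes. Dcaf12 had 4360, 5417 and 5364 with aldosterone in replications 1, 2 and 3, against 3232, 2579 and 3755 with vehicle. Like Pim3, it was highest with aldosterone in replication 2 and lowest with vehicle in replication 2. Next came Smad3, the transcription factor of TGF-beta signalling, at 0.10, then Tex2 at 0.13, Extl3, an enzyme of heparan sulfate synthesis, at 0.13 and the ubiquitin ligase Mkrn1 at 0.14. Smad3 was dim, at 379, 344 and 485 with vehicle in replications 1, 2 and 3. Its vehicle mean on the log2 scale lay under the limit for testing, so it passed the filter only through the aldosterone arrays. The log2 differences of Dcaf12, Smad3, Tex2, Extl3 and Mkrn1 were 0.66, 0.52, 0.57, 0.40 and 0.35. They were picked for likeness to Pim3 on these same arrays, so their shared direction follows from that choice.

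The nearest genes to Pim1 were the Wnt receptor gene Fzd8 at 0.06, the aryl hydrocarbon receptor gene Ahr at 0.08, Ngdn at 0.08, the kinase gene Stk11 at 0.08 and Nipsnap2 at 0.08, against a median of 0.35. All 5 were higher in replication 1 than in replication 3, by log2 differences of 0.56 to 0.77, which follows from their choice by likeness to Pim1. Stk11, also known as Lkb1, had 2934, 2611 and 1794 with aldosterone and 2805, 2198 and 1843 with vehicle in replications 1, 2 and 3. The nearest genes to Pim2 were Kcmf1 and the prefoldin subunit gene Pfdn2, both at 0.06, and Zfp105, Tead4 and 0610012G03Rik, each at 0.06. Pim2 itself varied little, with a root-mean-square deviation of 0.15 from its own mean. Pim1 and Pim3 lay 0.48 apart, and 4439 genes were nearer to Pim3 than Pim1 was. Pim2 and Pim3 lay 0.45 apart. Pim2 lay 0.25 from Pim1, under the median, with 1069 genes nearer to Pim1. A flat profile would lie 0.28 from Pim1, the deviation of Pim1 from its own mean, so this distance shows little likeness. Over the other 5 arrays, without the aldosterone array of replication 3, Dcaf12, Smad3 and Tex2 stayed the first 3 for Pim3. Only 1 of the 5 named genes stayed among the first 5 for Pim1 (Ngdn) and 1 for Pim2 (0610012G03Rik), though all 5 of each ranked within the first 23. That comparison was added after the values were seen.

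**Figure D4:**
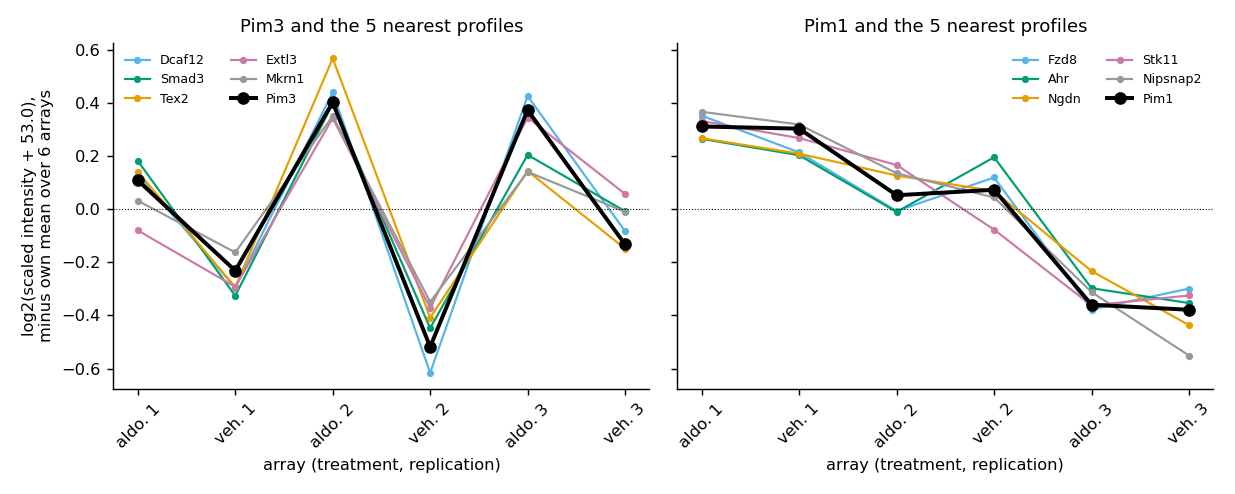
Log2(scaled intensity + 53.0) minus each gene's own mean, on the 6 arrays in replication order (aldosterone left of vehicle), for Pim3 (left panel, black) and Pim1 (right panel, black) with their 5 nearest genes in colour. Because the genes were chosen by likeness, each group shares the pattern of its Pim gene. The Pim3 group alternates with treatment and the Pim1 group steps with replication, and lines only join the points of a gene.

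The genes known to act on the Pim kinases or to be acted on by them were counted from lists written in an order of closeness to the family and not of change. Together the 6 lists held 92 genes besides the Pim genes, with 72 on the array and 67 bright enough to test. By limma 0 of the 67 were called in either direction, on group alone or with the replications paired. Standard errors of list genes come from the fit on group alone unless said to be paired. Over all tested probe sets the median of such errors was 0.209, against 0.153 for paired ones. Pairing narrowed the errors of list genes unevenly, from 0.323 to 0.168 for Klf5 and from 0.245 to 0.234 for Stat5b. Paired and unpaired errors should therefore not be compared between genes. Among the 67 genes the log2 difference was above 0 for 40 and below 0 for 27, against 2786 and 2854 of all 5640 tested genes. Its median was 0.03, against -0.002 over all 5640. In all 3 replications 5 (7.46%) were higher and 8 (11.9%) lower, close to the 10.5% and 11.7% of all tested genes. Without the aldosterone array of replication 3 the difference was above 0 for 41 and below 0 for 26, with a median of 0.05, and 9 of the 67 changed sign.

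Of the genes of JAK-STAT signalling, which induces Pim transcription, 18 of 23 were tested, with 11 differences above 0, 7 below 0 and a median of 0.04. They comprised 14 receptors, kinases and factors, 8 above 0 and 6 below, and 4 feedback inhibitors (Socs1, Socs2, Socs3 and Cish), 3 above and 1 below. None went one way in all 3 replications. Stat3, the factor downstream of interleukin-6 family cytokines, had 5158, 4175 and 4494 with aldosterone, against 4090, 6776 and 5294 with vehicle, a log2 difference of -0.20 ± 0.195 (SE). Stat5a, which carries prolactin and growth hormone signals, had -0.007 ± 0.147, and its close relative Stat5b had 0.20 ± 0.245. The kinase Jak2 had -0.06 ± 0.179. The interleukin-6 receptor gene Il6ra, named after its value was seen, had the widest difference, 1.22 ± 0.580 (SE). It was higher in 2 of 3 replications, and its vehicle mean of 8.54 on the log2 scale lay under the limit of 8.87, so it passed the filter only through the aldosterone arrays. The kinase Tyk2, also named afterwards, had 0.50 ± 0.279 and was higher in 2 of 3.

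Other regulators of Pim transcription, 10 of 11 tested, had 6 differences above 0 and 4 below, with a median of 0.03. The NF-kB subunit gene Rela had a log2 difference of 0.07 (standard error 0.140), the Kruppel-like factor Klf5 had 0.18 (0.323), the homeobox gene Hoxa9 had -0.02 (0.289) and Ets1 had -0.09 (0.222), lower in 3 of 3 replications. Between replications, however, 3 of these 10 were called, against 7.73% of all tested genes. They were Klf5, Nfkbia, the inhibitor of NF-kB, and Myc, the last 2 named after their values were seen. All 3 fell from replication 1 to 2 to 3, as Pim1 did and as 15.2% of all tested genes did. Of the list genes not called, Nfkb2 and Ikbkb had this order, and Rela, Hoxa9, Ets1, Relb and Ikbkg did not. Nfkb2, Ikbkb, Relb and Ikbkg were also named afterwards. A link of these genes to the Pim1 values was not tested. Klf5 averaged 2558, 1774 and 1246 in replications 1, 2 and 3 (adjusted p = 0.0423 by limma's F test). Nfkbia averaged 14758, 8820 and 6096 (0.00176), and Myc averaged 3148, 1124 and 698 (0.00284). Without the vehicle array of replication 1 the adjusted p was 0.0528 for Nfkbia and 0.0758 for Myc. The call of Klf5 was lost on leaving out any array of replication 1 or 3, with adjusted p up to 0.213. Over all 67 pathway genes, 6 were called between replications (8.96%), the others being Hspa8, Runx1 and Ywhaz, which did not have this order. The calls of these 3 were lost without either array of replication 1, with adjusted p by limma's F test up to 0.0655 for Hspa8, 0.178 for Runx1 and 0.0913 for Ywhaz. Without the intensity trend none of the 6 was called, with adjusted p of 0.0774 to 0.220.

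Genes of Pim protein turnover, 8 of 9 tested, had 3 differences above 0 and 5 below, with a median of -0.006. Hsp90aa1, a chaperone that stabilises Pim kinases, had a log2 difference of -0.004 ± 0.136 (SE). The inducible chaperone gene Hspa1b had 0.05 ± 0.198. Ppp2ca, the catalytic subunit of the phosphatase PP2A that counteracts Pim kinases, had -0.24 ± 0.200, and the chaperone Hspa8 had -0.22 ± 0.215. Both were lower in 3 of 3 replications, and their paired standard errors were 0.164 for Ppp2ca and 0.0758 for Hspa8.

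Substrates of Pim kinases, 19 of 26 tested, had 14 differences above 0 and 5 below, with a median of 0.03. Of all 5640 tested genes 2786 were above 0, and a shift of the substrates as a set was not tested. The death factor Bad had 1249, 1588 and 1712 with aldosterone, against 1813, 1872 and 1744 with vehicle, a log2 difference of -0.26 ± 0.184 (SE). The p21 gene Cdkn1a had 0.17 ± 0.222, the cell cycle phosphatase Cdc25a had 0.09 ± 0.158, and the initiation factor Eif4b had 0.13 ± 0.156. In all 3 replications 1 substrate was higher, Runx1, a transcription factor named after its value was seen, and 2 were lower, Bad and the receptor Notch1, which was also named afterwards. Runx1 had a log2 difference of 0.55 ± 0.542 (SE), with a paired standard error of 0.253.

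Genes of cap-dependent translation and survival, 10 of 15 tested, had 5 differences above 0 and 5 below, with a median of 0.002. The translation repressor Eif4ebp1 had a log2 difference of -0.08 (standard error 0.163), the survival genes Mcl1 and Bcl2l1 had 0.04 (0.139) and -0.04 (0.147), and the cap-binding protein Eif4e had -0.58 (0.342). Eif4e read 610, 320 and 290 with aldosterone, against 639, 504 and 676 with vehicle, lower in 3 of 3 replications. Its aldosterone mean of 8.78 on the log2 scale lay under the limit, so it passed the filter only through the vehicle arrays. Without the aldosterone array of replication 3 its difference was -0.40.

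The list of AKT, SGK and RSK kinases, which share substrates with the Pim kinases, also holds their activating kinase Pdpk1. Of its 11 genes 4 were tested, Akt1, Akt2, Sgk1 and Pdpk1, with no RSK kinase among them. Of the 4, 3 (Akt2, Sgk1 and Pdpk1) were higher in all 3 replications, as 10.5% of all tested genes were. Sgk1 had 3043, 2311 and 2637 with aldosterone, against 1059, 805 and 640 with vehicle. Its aldosterone arrays all lay above its vehicle arrays, as did those of 1.91% of the tested probe sets, Pim3 among them. Its log2 difference was 1.63 ± 0.223 (SE). The adjusted p by limma was 0.242 on group alone and 0.0509 paired. Both genes were known from this contrast, so nothing is read from their shared pattern. The activating kinase Pdpk1 had a log2 difference of 0.22 ± 0.184 (SE), Akt2 had 0.14 ± 0.219 and Akt1 had -0.12 ± 0.170. Sgk1 too was known as a responder of this study when the list was written.

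**Figure D5:**
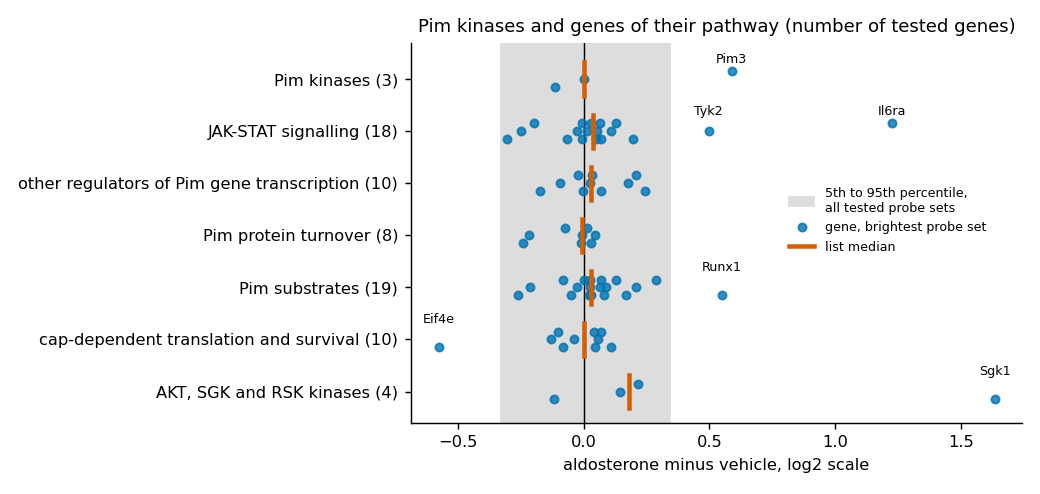
Aldosterone minus vehicle (log2 scale) for each tested gene of the Pim kinase list and 6 pathway lists, with the number tested in brackets, the list median as an orange bar and a grey band from the 5th to the 95th percentile of all tested probe sets (-0.33 to 0.34). Most points lie inside the band, and Pim3 (0.59), Il6ra (1.22), Tyk2 (0.50), Runx1 (0.55), Eif4e (-0.58) and Sgk1 (1.63) are labelled outside it.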

How the data were processed

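Total RNA from 6 samples, 3 per treatment, was hybridised to 1 single-colour array each, per the labels. The authors deposited 1 linear intensity for each probe set on each array. How the authors scanned, summarised and scaled them is not given in the sources used here. Their 2% trimmed means differed by over 10% because of 1 array, so each array was scaled to the mean trimmed mean of 2090 (factors 0.838 to 0.840, and 24.2 for that array). Values became log2(intensity + 53.0), the pseudocount being the 10th percentile, and 7453 probe sets at or above the 40th percentile of mean log2 value (8.87) were tested. The number of arrays limits the precision.

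Symbols came from the array's annotation (10833 probe sets with 1 symbol, 396 with several, 1193 with none) and RefSeq, which changed 0. A gene was represented by its brightest probe set. Promoters were matched by symbol for 3 of 3 Pim genes.

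limma 3.58.1 in R 4.3.3 (lmFit, eBayes with intensity trend, two-sided, Benjamini-Hochberg) compared treatments on group alone and replications by an F test with treatment in the fit. Tests were tried on simulated arrays drawn independently around each probe set's mean, with known shifts added to some probe sets. Deviations shared by same-numbered arrays were not simulated for the treatment comparison, so its error rate in these data was not tested. Replication numbers were taken as pairs, since the sample titles give each number to 1 vehicle and 1 aldosterone array. The titles do not say what a number stands for. Across probe sets, same-numbered arrays deviated together from their group means (r = 0.377, 0.387 and 0.471). Members, lists and motifs were chosen with earlier results of these data known. Named genes were the Pim genes, the first 4 tested of each list, any list gene past the threshold, and the 5 nearest profiles of each tested Pim gene. Others are marked as named afterwards. Alternatives covered scaling, pseudocount, filter, trend, pairing, test and each array or replication left out.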

Additional observations from a re-analysis of the deposited data

How the results depend on the processing

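The log2 difference of Pim3 lay between 0.42 and 0.71 under the 18 alternatives, with the extremes on leaving out replications 2 and 1. Leaving out arrays could not change its sign, since every aldosterone array lay above every vehicle array. The filter, trend, block and plain-test settings do not alter the difference itself. Because Pim3 drew attention to the family, nothing is read from this range. The standard error of the Pim3 difference was 0.128 with the replicate block. The bright Pim1 probe set ranged from -0.003 to 0.03 under other settings and from -0.19 to 0.18 when arrays or replications were left out, so its sign is not fixed. The ranges were -0.25 to 0.05 for the brighter Pim2 probe set, -0.83 to 0.22 for the dim Pim1 and -0.64 to 0.04 for the dim Pim2 probe set. The count of probe sets called between treatments was 0 with the replicate block and under every other setting but 1: leaving out arrays or replications gave 0 to 1, the 1 being without vehicle replicate 2. Among list genes it was 0 throughout. The number called between replications was 583, and 2 without the intensity trend, where the adjusted p of Pim1 was 0.166. Leaving out 1 array gave 44 to 1292, with 44 and 100 without the vehicle and the aldosterone array of replication 1 and 943 and 1292 without those of replication 2. The adjusted p of Pim1 then ranged from 0.00499 to 0.135. Every fit that left out 1 array had fewer degrees of freedom, whether its count fell or rose. The cause of these changes was not tested. The brighter Pim2 probe set was not tested under the 60th percentile filter, which it just missed. The dim Pim2 probe set, close to the pseudocount, and the dim Pim1 probe set, just under the limit for testing, give no resolved difference.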
